A study of Homo sapiens with 9 samples.

Results

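The chromobox (CBX) proteins are chromatin readers, and 7 of their genes were examined: CBX1, CBX3 and CBX5, which encode heterochromatin protein 1 (HP1) beta, gamma and alpha, and CBX2, CBX6, CBX7 and CBX8, which encode chromodomain subunits of Polycomb repressive complex 1 (PRC1). The members were chosen by gene name, as every probe that the array's annotation assigns to one of these genes, which gave 13 of the 42405 probes on the array and 7 of its 34623 gene names. The family itself was picked with the paraoxon and control values of CBX3 in view, so the values of the family in that comparison are a description and carry no test. RNA came from cultures of NT2, a human embryonal carcinoma line that turns towards neurons in retinoic acid. All cultures, controls included, were kept for 4 days (96 h in the sample labels) in 10 μM retinoic acid. They received in addition nothing (control), 1 μM paraoxon or 5 μM mipafox, which are organophosphorus esterase inhibitors, with 3 1-colour arrays per treatment carrying the letters A, B and C. The study's methods call these arrays technical replicates and the labels call them biological, and since neither source ties them to separate cultures, a p-value here measures the spread between arrays only.

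The chromodomain of an HP1 protein binds histone H3 methylated on lysine 9, the mark of heterochromatin, and HP1 proteins recruit the enzymes that write the mark, which lets it spread. The Polycomb CBX proteins bind histone H3 methylated on lysine 27, the mark that Polycomb repressive complex 2 (PRC2) writes, and bring PRC1 to genes that are kept silent during development. In pluripotent stem cells CBX7 is known as the main Polycomb CBX subunit, and other members of the group take over as the cells differentiate.

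The arrays lay on 2 slides, and this bears on every value given here. Slide 1 held control A, B and C and mipafox A, and slide 2 held paraoxon A, B and C and mipafox B and C, so paraoxon and control shared no slide. The 75th percentile of the processed signal, which was used to scale the arrays, lay between 802 and 1590, and 65.7% to 73.6% of probes were well above background. Log2 signals of any pair of arrays correlated across probes with r from 0.974 to 0.996. Of the marker genes checked, all 9 of pluripotency (POU5F1, SOX2 and NANOG among them) and all 9 of the retinoic acid response were well above background on every array. So were 5 of 8 neural genes and 5 of 7 genes of other cell types, while SOX1, NEUROD1 and STMN2 were well above background on at most 2 arrays and GFAP on none. In such RNA from whole cultures, fewer cells of a type and less RNA per cell cannot be told apart.

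The sequences of 3 probes are shown because the array's annotation gives each gene a further probe closer to the 3′ end, and the probes of a gene did not behave alike. CBX3 A_33_P3222018 (chr7:26248079-26248138 of hg19, plus strand), CBX1 A_24_P298174 (chr17:46153403-46153462, minus strand) and CBX5 A_23_P2355 (chr12:54639917-54639976, minus strand) are 60 bases long and are written 5′ to 3′ as deposited, with runs of at least 4 A in capitals.
CBX3 A_33_P3222018: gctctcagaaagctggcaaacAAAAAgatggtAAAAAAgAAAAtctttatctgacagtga
CBX1 A_24_P298174: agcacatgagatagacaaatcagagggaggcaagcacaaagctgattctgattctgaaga
CBX5 A_23_P2355: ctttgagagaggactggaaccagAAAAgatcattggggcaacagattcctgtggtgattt
The CBX3 probe held 27 A against a median of 16 over tested probes, and 1.16% of tested probes held at least as many. Its longest run was 6 A, a length reached by 2.37% of tested probes. The match of these letters to the genes' transcripts was not tested, and whether the probes lie in coding sequence or a UTR was not examined here. A human RefSeq gene table (assembly GRCh38.p14) lists 10 pseudogenes of CBX3, 5 of CBX1 and 1 of CBX5, so signal from near copies cannot be told apart from that of the genes. For CBX2, CBX6, CBX7 and CBX8 it lists 0.

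All 13 probes were well above background on all 9 arrays, and none of their 19 spots was saturated or marked as an outlier on any array. CBX3 A_33_P3222018 differed from control by 1.86 with paraoxon and 1.01 with mipafox (log2), and the other probes by at most 0.54 and 0.43 in either direction. Values are normalized log2 signals, that is, the log2 of the processed signal minus the array's 75th percentile, and because each probe binds with its own strength, levels are set only against the same probe on other arrays.

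**Figure D1:**
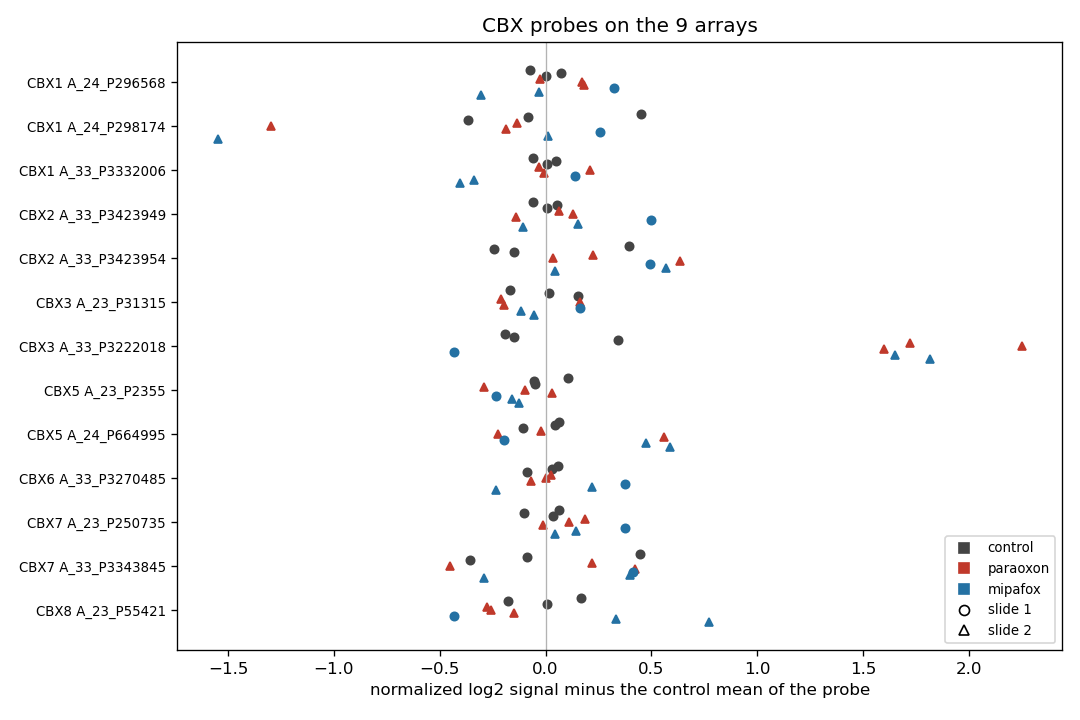
Each of the 13 CBX probes on each of the 9 arrays, as normalized log2 signal minus the probe's control mean. Colour gives the treatment and shape the slide; the CBX3 probe A_33_P3222018 is the 1 probe with all 5 arrays of slide 2 to the right of all 4 arrays of slide 1.

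HP1 gamma, the product of CBX3, is found in silent chromatin and also in the bodies of transcribed genes. CBX3 A_33_P3222018 read -4.19, -4.15 and -3.66 on the control arrays, -2.28, -1.75 and -2.40 with paraoxon (A to C), and -4.43, -2.35 and -2.18 with mipafox (A to C). The control and paraoxon arrays did not overlap, and the mipafox arrays fell on both sides, the array of slide 1 with the controls and both arrays of slide 2 with paraoxon. The log2 difference from control was 1.86 (standard error 0.52, n = 3 arrays per group) with paraoxon and 1.01 (standard error 0.52) with mipafox, where limma's adjusted p was 0.791.

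The same probe was also read by slide. Between the mipafox arrays of slide 2 and that of slide 1 it differed by 2.17 (2.08 with mipafox B alone and 2.25 with mipafox C alone). Within slide 1, mipafox A lay 0.43 below the control mean, and within slide 2 the paraoxon mean lay 0.12 above that of mipafox B and C. With slide as a block, the log2 difference from control was -0.31 (standard error 0.39) with paraoxon and -0.43 (standard error 0.31) with mipafox. The 5 arrays of slide 2 all lay above the 4 of slide 1, with a gap of 1.26 between the nearest arrays. Of 29109 tested probes with a value on every array, 4.84% lay higher on every array of slide 2 and 4.93% lower. Counting only probes higher on slide 2, 17 probes, this probe included, had a gap between slides at least as wide. Paraoxon and control shared no slide and the family was picked with their CBX3 values in view, so that rank was partly fixed by the choice. The mipafox arrays of slide 2 lay above that of slide 1 by at least as much at 38 probes (0.131%). Differences of that size in the other direction were not counted. Among the CBX probes, 1 was higher on every array of slide 2 and 0 were lower. For this probe the paraoxon difference cannot be told apart from the slide.

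CBX3 A_23_P31315 (chr7:26251960-26252019, plus strand), 3881 bases further along the plus strand, read 4.58, 4.76 and 4.89 on the control arrays, 4.53, 4.90 and 4.55 with paraoxon, and 4.90, 4.63 and 4.69 with mipafox. The 3 treatments overlapped, and so did the slides. Its log2 difference was -0.08 (standard error 0.16) with paraoxon and 0.00 with mipafox (standard error 0.16; adjusted p = 0.998, limma), and with slide as a block it was 0.17 (standard error 0.27) and 0.16 (standard error 0.22). With the authors' processed values the differences were 0.22 with paraoxon and 0.23 with mipafox, so the direction depended on the processing. The signal of this probe was measured on 2 spots per array, which differed by at most 0.21 (log2), whereas A_33_P3222018 has 1 spot. The processed signal was 37.1 to 359 on A_33_P3222018 and 19173 to 42754 on A_23_P31315, against a lowest signal well above background of 8.31 to 13.7 depending on the array.

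**Figure D2:**
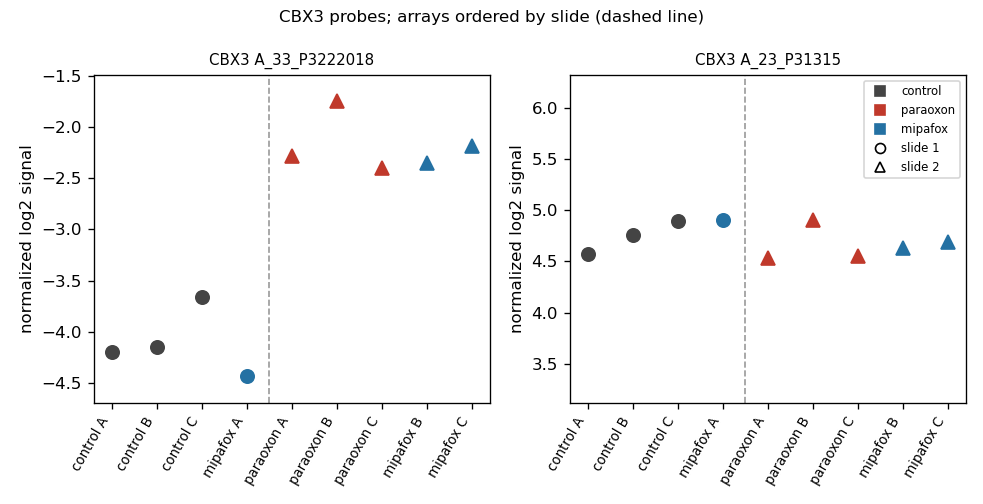
Normalized log2 signal of the CBX3 probes on each array, ordered by slide, with the slides divided by a dashed line; both panels span the same range of log2 units. A_33_P3222018 steps up by 1.26 or more from every slide 1 array to every slide 2 array, mipafox included, and A_23_P31315 stays between 4.53 and 4.90.

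The 5 probes of other named genes whose pattern over the 9 arrays was most like that of CBX3 A_33_P3222018, by Pearson's r, were those of BCL10 (r = 0.991), FNBP1 (r = 0.984), LOC100130700 (r = 0.981), ACBD5 (r = 0.980) and RECQL (r = 0.977). The arrays share the slide division, so these values mainly rank probes that follow it. RECQL encodes a DNA helicase, and its probe lay between -8.23 and -7.85 on slide 1 and between -5.07 and -4.46 on slide 2. BCL10, a signalling adaptor, lay between -6.41 and -5.75 on slide 1 and between -4.38 and -3.23 on slide 2. CBX3 A_23_P31315 followed other probes: ARHGAP12 (r = 0.947), ATXN7L1 (r = 0.928), C9orf30 (r = 0.926), FAM74A1 (r = 0.925) and CRLS1 (r = 0.924), all over 9 arrays.

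HP1 beta, the product of CBX1, has 3 probes. The most 5′ of them, A_24_P298174, read 1.77, 1.23 and 0.94 on the control arrays, 1.18, 0.01 and 1.13 with paraoxon (A to C), and 1.57, 1.33 and -0.24 with mipafox (A to C). It was low on paraoxon B and mipafox C, and the other 4 exposed arrays lay within the range of the controls. The log2 difference was -0.54 (standard error 0.49) with paraoxon and -0.43 with mipafox (standard error 0.49; adjusted p = 0.940, limma), and with slide as a block the sign was the opposite, at 0.49 (standard error 0.84) and 0.26 (standard error 0.66).

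The other CBX1 probes were not low on paraoxon B, and on both mipafox C was the lowest of the 9 arrays, by less than on A_24_P298174. A_33_P3332006 (chr17:46147818-46147877, minus strand) read 2.63, 2.73 and 2.69 on the control arrays, 2.65, 2.89 and 2.68 with paraoxon, and 2.83, 2.35 and 2.28 with mipafox. A_24_P296568 (chr17:46147487-46147546, minus strand) read 3.15, 3.30 and 3.23, then 3.20, 3.40 and 3.41, and 3.55, 3.19 and 2.92, in the same order. On both of these probes paraoxon B lay above all control arrays. Their log2 differences were 0.06 and 0.11 with paraoxon (standard errors 0.17 and 0.17), and -0.20 and 0.00 with mipafox (limma's adjusted p = 0.899 and 0.998).

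CBX1 A_24_P298174 was also set beside histone probes. Over the 9 arrays its r with 74 tested histone probes had a median of 0.907, against 0.199 with all tested probes, and 39 of the 74 exceeded 0.9, as did 715 of all tested probes, histone probes included. For CBX3 A_33_P3222018 the median with histone probes was -0.66, and for CBX3 A_23_P31315 it was -0.25. Among the 5 named probes most like CBX1 A_24_P298174 were HIST1H2BE (r = 0.985), which encodes a core histone of the H2B type, HAPLN2 (r = 0.990), TBXAS1 (r = 0.988), DNM1P46 (r = 0.988) and AATK (r = 0.984). HIST1H2BE read -3.22 on paraoxon B and -3.69 on mipafox C, and between -1.83 and -0.15 on the other 7 arrays. Without paraoxon B and mipafox C, a choice made after their values were seen, the CBX1 probe differed from control by -0.16 (standard error 0.24) with paraoxon and by 0.14 (standard error 0.24) with mipafox.

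Probe position within transcripts was compared over the whole array, since the CBX1 and CBX3 probes of a gene disagreed. Over 2341 transcripts with tested probes at least 500 bases apart, the most 5′ minus the most 3′ probe, centred on each transcript's mean, had a median of 0.31, 0.13 and 0.13 on the control arrays, -0.01, -0.07 and -0.26 with paraoxon (A to C), and 0.00, -0.09 and -0.09 with mipafox (A to C). The control arrays were highest and paraoxon C lowest. For CBX1, A_24_P298174 minus A_24_P296568, centred in the same way, was 0.88 on control A, -1.11 on paraoxon B and -0.89 on mipafox C, and between -0.01 and 0.40 elsewhere. For CBX3 the difference between its probes, A_33_P3222018 minus A_23_P31315, was -1.58 to -0.80 on slide 1 and 0.78 to 1.11 on slide 2. The annotation places these probes at bases 612 and 834 of different transcript variants, and their distance of 3881 bases is one on the genome. The CBX3 pair was therefore not held to the limit of 500 bases, and it is not set against the median transcript. The CBX5 pair gave 0.13 to 0.28 on the control arrays, -0.04, 0.36 and -0.30 with paraoxon (A to C), and 0.19, -0.40 and -0.49 with mipafox (A to C). The CBX7 pair ran from -0.55 on paraoxon B to 0.45 on paraoxon C, with overlapping treatments. The part of probe position in the CBX values was not tested further.

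**Figure D3:**
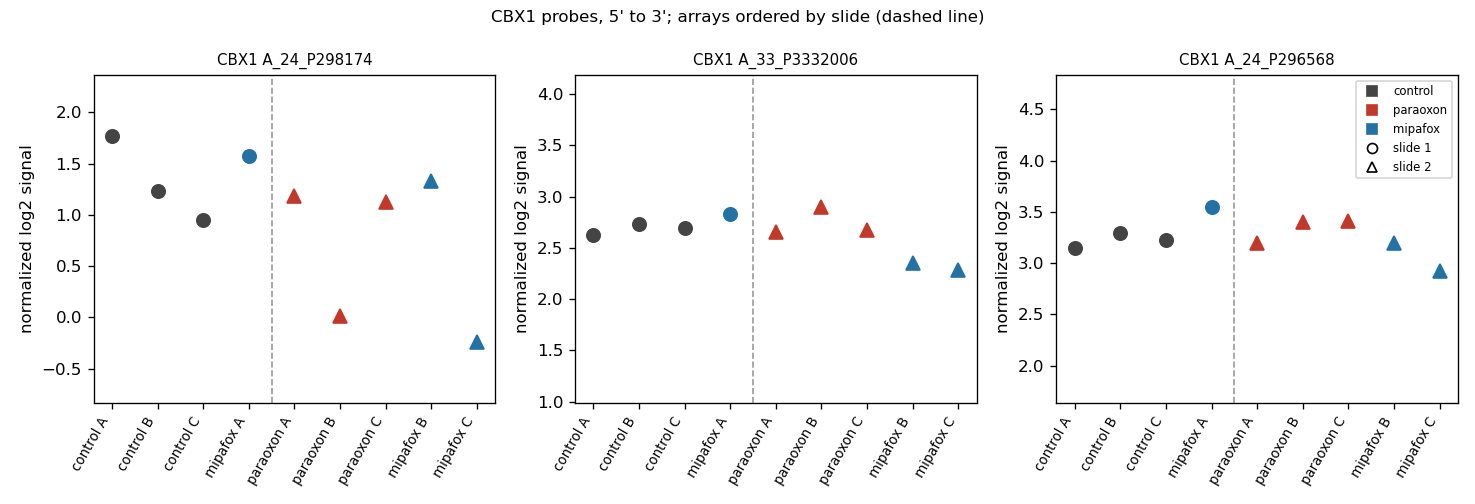
Normalized log2 signal of the 3 CBX1 probes on each array, from the most 5′ (left) to the most 3′ (right), ordered by slide, with all panels spanning the same range of log2 units. The left probe reads 0.01 on paraoxon B and -0.24 on mipafox C; the other 2 probes are not low on paraoxon B and are lowest on mipafox C, at 2.28 and 2.92.

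HP1 alpha, the product of CBX5, is the HP1 protein concentrated at centromeric heterochromatin. A_23_P2355 read 0.84, 0.67 and 0.68 on the control arrays, 0.44, 0.63 and 0.76 with paraoxon, and 0.50, 0.57 and 0.60 with mipafox. All mipafox arrays, on either slide, lay below all control arrays, by a log2 difference of -0.17 (standard error 0.14; adjusted p = 0.881, limma), and with slide as a block it was -0.23 (standard error 0.19). The paraoxon difference was -0.12 (standard error 0.14). The other probe, A_24_P664995 (chr12:54624795-54624854, minus strand), read 2.28, 2.26 and 2.11 on the control arrays, 2.20, 1.99 and 2.78 with paraoxon, and 2.02, 2.69 and 2.80 with mipafox. It was high on paraoxon C and on mipafox B and C, and the differences from control were 0.10 (standard error 0.25) and 0.29 (standard error 0.25; adjusted p = 0.905, limma), or -0.62 and -0.19 with slide as a block.

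Among the Polycomb members, CBX7 had 2 probes. The more 3′ one, A_23_P250735 (chr22:39527000-39527059, minus strand), read 1.94, 1.77 and 1.91 on the control arrays, 2.06, 1.99 and 1.86 with paraoxon, and 2.25, 2.02 and 1.92 with mipafox. It differed from control by 0.09 (standard error 0.14) with paraoxon and 0.19 with mipafox (standard error 0.14; adjusted p = 0.868, limma). The more 5′ A_33_P3343845 (chr22:39529719-39529778, minus strand) was lowest on paraoxon B (-2.87), control C (-2.78) and mipafox C (-2.71) and otherwise lay between -2.51 and -1.98. Its differences were 0.06 (standard error 0.30) and 0.17 (standard error 0.30; adjusted p = 0.969, limma). The r of this probe with CBX1 A_24_P298174 over the 9 arrays was 0.798.

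CBX2, a subunit that compacts chromatin, was measured by a probe annotated to each of 2 transcript variants. A_33_P3423949 (chr17:77761302-77761361, plus strand) read 3.14, 3.25 and 3.20 on the control arrays, 3.26, 3.33 and 3.05 with paraoxon, and 3.69, 3.35 and 3.09 with mipafox, where mipafox A was the highest. A_33_P3423954 (chr17:77755889-77755948, plus strand) lay between -5.42 and -4.54, with overlapping treatments and a low processed signal of 31.3 to 51.5. Their paraoxon differences were 0.02 (standard error 0.17) and 0.30 (standard error 0.23), and their mipafox differences were 0.18 and 0.37 (limma's adjusted p = 0.917 and 0.835).

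CBX8 and CBX6 have 1 probe each. CBX8 A_23_P55421 (chr17:77768342-77768401, minus strand) read -3.25, -3.60 and -3.41 on the control arrays, -3.70, -3.68 and -3.57 with paraoxon, and -3.85, -3.09 and -2.65 with mipafox. Mipafox A was the lowest of the 9 arrays and mipafox B and C the highest, a difference of 0.99 between the slides within that treatment. The log2 difference from control was -0.23 (standard error 0.27) with paraoxon and 0.22 with mipafox (standard error 0.27; adjusted p = 0.941, limma). Within slide 2, paraoxon lay 0.78 below mipafox B and C, and with slide as a block the paraoxon difference was -1.22 (standard error 0.29), a value that depends on mipafox A, since no other exposed array was on slide 1. The processed signal of this CBX8 probe was low, at 55.5 to 201, on 1 spot per array. CBX6 A_33_P3270485 (chr22:39260285-39260344, minus strand) lay between 1.33 and 1.94, both ends being mipafox arrays, and differed from control by -0.01 (standard error 0.17) with paraoxon and 0.12 with mipafox (standard error 0.17; adjusted p = 0.958, limma).

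**Figure D4:**
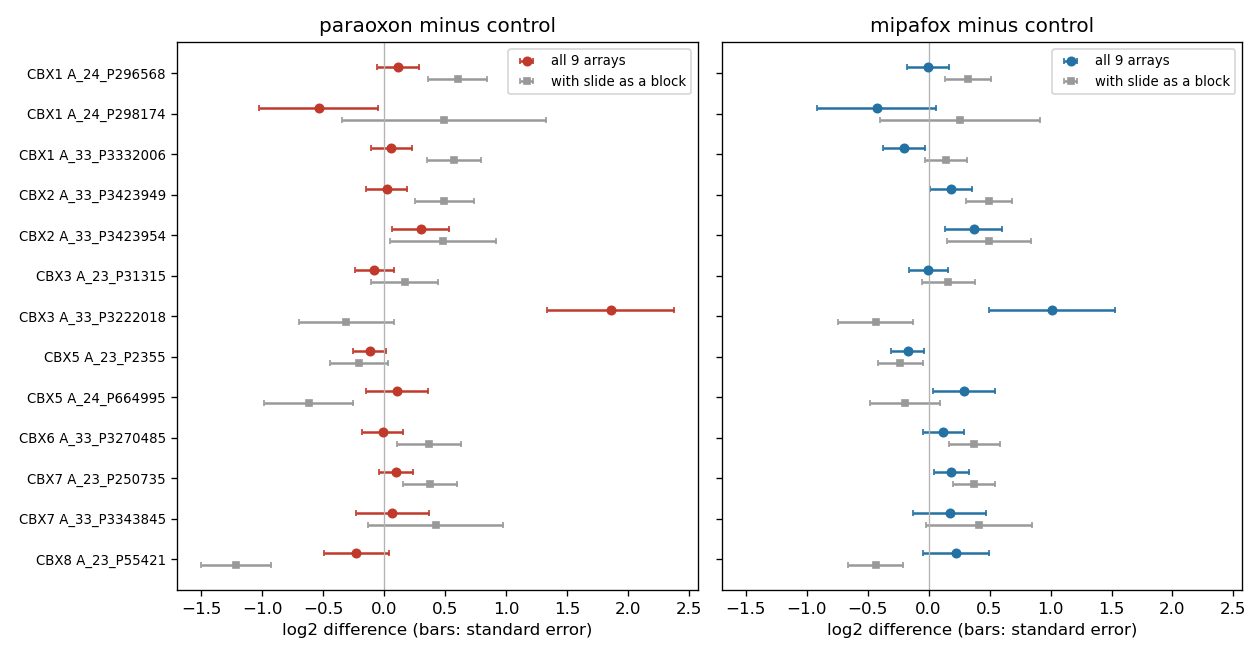
Log2 difference from control of the 13 CBX probes with paraoxon (left) and mipafox (right), with bars for the standard error, from the fit of all 9 arrays (coloured circles) and with slide as a block (grey squares). CBX3 A_33_P3222018 goes from 1.86 to -0.31 with paraoxon when slide is a block, and CBX8 A_23_P55421 from -0.23 to -1.22.

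The slide block gave larger differences at further CBX probes. With slide as a block the paraoxon differences were 0.57 and 0.60 at CBX1 A_33_P3332006 and A_24_P296568 (standard errors 0.22 and 0.24), 0.49 and 0.48 at CBX2 A_33_P3423949 and A_33_P3423954 (standard errors 0.24 and 0.44), 0.37 at CBX6 A_33_P3270485 (standard error 0.26), and 0.38 and 0.42 at CBX7 A_23_P250735 and A_33_P3343845 (standard errors 0.22 and 0.55). The mipafox differences at these probes, which are then those of mipafox A from the controls within slide 1, were 0.14 to 0.50. Within slide 2 the paraoxon mean lay 0.43 and 0.28 above mipafox B and C at those CBX1 probes, and within 0.02 of it at the CBX2, CBX6 and CBX7 probes.

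Over the family, limma's fit of all 9 arrays called 0 of the 13 probes for paraoxon against control, the limits being 0.05 for the adjusted p and 1 for the size of the log2 difference, and 0% of the 29134 tested probes. At an unadjusted p under 0.05 with the same limit on the difference, 1 CBX probe passed, CBX3 A_33_P3222018, against 2.19% of all tested probes. That probe was also called when the control and paraoxon arrays were fitted alone (0.947% of all tested probes called). Nothing is read from these counts, since the family was picked with this comparison in view. Paraoxon and control did not overlap at 1 of the 13 probes, against 23.4% of all tested probes. The paraoxon differences were above 0 at 8 probes and below 0 at 5, with a median of 0.06 against 0.01 over all tested probes.

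For mipafox against control, limma called 0 of the 13 CBX probes and 0% of all tested probes, and the smallest adjusted p in the family was 0.791. At an unadjusted p under 0.05, 0 CBX probes passed with or without the limit on the difference, against 0.844% of tested probes with it. The groups did not overlap at 1 CBX probe, CBX5 A_23_P2355, against 11.8% of tested probes. The differences were above 0 at 8 probes and below 0 at 5, with a median of 0.17 against 0.00 over all tested probes. Both comparisons use the same control arrays. Paraoxon and mipafox were given at different doses, so their values stand side by side, and limma's fit between them called 0 CBX probes and 0% of tested probes, with 0 CBX probes and 0.254% of tested probes past the unadjusted limit. Paraoxon and mipafox arrays overlapped at all 13 probes, against 8.95% of tested probes where they did not.

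Whether CBX3 A_33_P3222018 was called depended on mipafox A and on the weighting of the arrays. Without mipafox A, limma called that probe alone in the family for paraoxon against control (0.947% of all tested probes called) and for mipafox against control (0.261% called). Mipafox A was the only exposed array on slide 1, so without it neither compound shared a slide with the controls. The mipafox difference then cannot be told apart from the slide either. With weights estimated for each array CBX3 A_33_P3222018 was again the only CBX probe called, for paraoxon (2.3% of tested probes called) and for mipafox (2.75% called). The paraoxon calls carry no test, since the family was picked with the paraoxon and control values of CBX3 in view.

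The partners of these readers and related chromatin genes were examined through 4 lists. limma called 0 probes of any list in either comparison with control or between the compounds, also at the unadjusted limit. Over all tested probes 0% were called in each comparison, so the 0 is not particular to the lists. At the unadjusted limit the share of all tested probes was 2.19% with paraoxon, 0.844% with mipafox and 0.254% between the compounds. Of the list named canonical PRC1 and partners, 25 probes of 17 genes were tested, with a median difference of -0.01 with paraoxon and 0.05 with mipafox. Despite its name, the list also holds subunits of variant PRC1, which lacks a CBX protein. The highest of the list with paraoxon was BMI1 A_23_P314115 (0.43, standard error 0.22) and with mipafox PCGF1 A_23_P68059 (0.30, standard error 0.22). Both encode ring finger subunits of PRC1, in the case of PCGF1 of a variant form. With slide as a block the signs turned, to -0.15 for this BMI1 probe and -0.23 for the PCGF1 probe. The lowest in both was PHC2 A_23_P34510, of a polyhomeotic subunit, at -0.78 and -0.55 (standard error 0.41), which read -3.34 on paraoxon C and between -2.20 and -1.34 elsewhere. BMI1 A_24_P303989, looked at because of the first probe, differed by -0.51 and -0.41. The other PHC2 probe, A_23_P423864, differed by -0.13 and -0.002. With slide as a block PHC2 A_23_P34510 differed by -1.01 and -0.70.

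PRC2, which writes the lysine 27 mark, had 15 tested probes of 11 genes with a median of -0.02 with paraoxon and -0.04 with mipafox. AEBP2 A_24_P18621, of an accessory subunit, was the highest with paraoxon (0.28, standard error 0.19), and EZH1 A_23_P428219, of a methyltransferase subunit, with mipafox (0.26, standard error 0.18). RBBP4 A_33_P3232562, of a histone-binding subunit, was the lowest in both, at -0.69 and -0.82 (standard error 0.60). It read between 0.44 and 1.18 on 7 arrays and was lowest on mipafox C (-1.30) and then on paraoxon B, the arrays on which CBX1 A_24_P298174 was low as well. With slide as a block RBBP4 A_33_P3232562 differed by 0.19 with paraoxon and -0.24 with mipafox, while the AEBP2 and EZH1 probes kept their sign. Of the other RBBP4 probes, A_23_P326691 differed by -0.58 and -0.79, A_33_P3338559 by -0.14 and -0.17, and A_24_P468810 by 0.16 and 0.14. EZH2, the other methyltransferase subunit, differed by 0.01 and 0.01.

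HP1 and lysine 9 methylation partners had 37 tested probes of 22 genes, with a median of 0.02 with paraoxon and 0.01 with mipafox. ATRX A_33_P3612589, of a chromatin remodeller, was the highest with paraoxon at 0.35 (standard error 0.13) and EHMT1 A_23_P20894, of a lysine 9 methyltransferase, the lowest at -0.92 (standard error 0.33). With mipafox INCENP A_23_P116387 was the highest at 0.36 (standard error 0.32) and HP1BP3 A_33_P3414695 the lowest at -0.94 (standard error 0.32). The other HP1BP3 probe, A_24_P944616, differed by 0.25 with paraoxon and 0.14 with mipafox. The other ATRX probes differed by -0.05, 0.10 and -0.28 with paraoxon. EHMT1 A_23_P20894 lay below all control arrays on every paraoxon and mipafox array, from -4.10 to -2.66 against -2.49 to -2.10. Over all tested probes, paraoxon and control did not overlap at 23.4%, and mipafox and control at 11.8%. With slide as a block the paraoxon difference of A_23_P20894 was -0.56. The other EHMT1 probes, A_23_P217120 and A_33_P3286387, differed by 0.08 and -0.33 with paraoxon and by 0.12 and -0.29 with mipafox. Other chromodomain readers had 14 tested probes of 11 genes, with medians of -0.02 and -0.01. In that list the paraoxon differences ran from -0.72 (MSL3 A_33_P3330872, standard error 0.69) to 0.30 (CHD2 A_24_P264664, standard error 0.12), and the mipafox differences from -0.35 (CHD2 A_24_P85317, standard error 0.39) to 0.34 (CHD3 A_33_P3239287, standard error 0.18). The other MSL3 probes differed by 0.07 and 0.10 with paraoxon. The highest and lowest probes of this list and of the HP1 list kept their sign with slide as a block. The medians over all tested probes were 0.01 with paraoxon and 0.00 with mipafox.

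**Figure D5:**
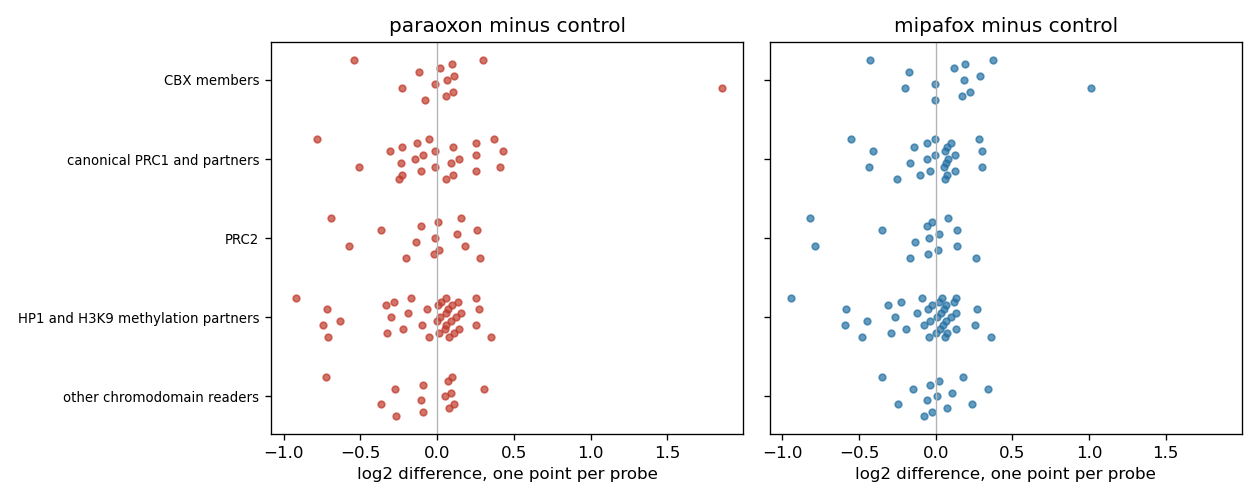
Log2 difference from control with paraoxon (left) and mipafox (right) of the 13 CBX probes and of the tested probes of the 4 partner lists, 1 point per probe. The point at 1.86 on the left and at 1.01 on the right is CBX3 A_33_P3222018, and the probes of the lists lie between -0.94 and 0.43.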

How the data were processed

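Total RNA of NT2 cells was measured on 9 Agilent 1-colour arrays, 3 per treatment. For each array the authors deposited the output of Feature Extraction 10.5.1.1, a version named in the submitters' processing notes, whose processed and mean signals are intensity values on a linear scale. A second file from the authors holds their log2 values, already processed, for 29527 probes. The paper names the Agi4x44PreProcess package and its manual for normalization and filtering, and the steps taken from the manual are not given in the sources used here. The deposited log2 values were close to the scanner values once background was subtracted (with a floor and an offset of 50) and arrays were brought to the same quantiles, with a median absolute difference of 0.061 to 0.074 per array; the scale and direction are therefore known and the exact steps are not.

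For the present values the log2 of the processed signal was scaled by subtracting each array's 75th percentile over non-control spots. Outlier spots were dropped before a probe's spots were averaged. A probe entered the tests if some treatment had it well above background (in at least 0.5 of its spots) on all arrays, provided that each treatment had 2 or more values, which left 29134 probes. limma 3.58.1 in R 4.3.3 was fitted over all 9 arrays with a mean per treatment and Benjamini-Hochberg adjustment over all tested probes. A probe was called if its adjusted p was under 0.05 and its log2 difference exceeded 1 in size. Differences between mipafox arrays on different slides and within each slide are values without a test. The code was tested on simulated data, and figures were drawn with matplotlib 3.10.9.

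The CBX genes, the partner lists and the marker lists were chosen with earlier results of these data known. All CBX probes are named. For each CBX3 probe the 5 most similar probes of other genes with a symbol are named, and for each list and each comparison with control the probes with the highest and the lowest difference. Likeness to a CBX1 probe, probe position and the fit without paraoxon B and mipafox C were added after the data were seen. The alternatives were quantile normalization, normexp background correction, the authors' log2 values, both filters on dim probes, a block for slide or for replicate letter, fits of only the treatments compared, array weights, the variance model, outlier spots, the call limits and each array left out. Same-letter arrays did not deviate together (r of deviations from the treatment means -0.60 to 0.57 over 9 pairs), so letters were not taken to pair the arrays. The number of arrays limits the precision. Coordinates are on hg19, as the files give them.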

Additional observations from a re-analysis of the deposited data

How the results depend on the processing

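The count of CBX probes called was 0 in all 3 comparisons with limma over all 9 arrays. For paraoxon against control it was 1 with only these 2 treatments in the fit, 1 with array weights and 1 at an unadjusted p, and array weights also gave 1 for mipafox against control. With each array left out in turn it was 0 to 1 in both comparisons with control, and 1 only without mipafox A. No exposed array was then left on slide 1. The probe called was CBX3 A_33_P3222018 each time. With only these treatments in the fit, its paraoxon difference stayed at 1.86 and its standard error was 0.23, against 0.52 over all 9 arrays. Its SD between arrays was 0.30 in the controls, 0.35 with paraoxon and 1.25 with mipafox. The cause was not tested, although the unadjusted p by construction lacks the correction. With the replicate letter as a block, the replicate block, 0 CBX probes were called in any comparison, and the other listed settings also gave 0. Since a count cannot go below 0, little on its stability follows from them. Of the single log2 differences, 259 of 273 with paraoxon, 263 of 273 with mipafox and 271 of 273 between the compounds moved by less than the spread between arrays (1 SD) over 21 settings, and 23, 28 and 20 changed sign. Some settings could not move a difference: the filters on dim probes, the replicate block, only the treatments compared, the variance model and outlier spots. Leaving out an array of the treatment outside a comparison could not move it either. Those values are unmoved by construction, so these shares say little on stability. CBX3 A_33_P3222018 ran from -0.31 to 2.03 with paraoxon and from -0.43 to 1.73 with mipafox, the lowest value in each with slide as a block. With the authors' processed values CBX3 A_23_P31315 turned from -0.08 to 0.22 with paraoxon and from 0.00 to 0.23 with mipafox. The slide block leans on mipafox A alone among the exposed arrays. Between the slides, the mipafox difference of CBX1 A_24_P298174 was -1.03, but -0.25 with mipafox B alone and -1.81 with mipafox C alone.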
